A study of Mus musculus with 4 samples.

Results

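Trem2, Tyrobp, Spp1, Cd9, Gpnmb, Fabp5, Cst7, Itgax and Igf1 are genes of the disease-associated microglia programme, and their RNA was followed through the leukocytes of a mouse glioma. They were taken by symbol from the gene rows of both libraries, where each of the 9 symbols matched 1 row, out of 31253 genes in all. Apoe, the best known gene of the programme, was not among them. The cells were live CD45+ leukocytes sorted from hemispheres bearing CT2a, a syngeneic mouse glioma line, on day 14 after implantation into adult female C57Bl/6 mice. The WT group held 4 mice and the CaMKK2 KO group held 4 mice with a germline deletion of Camkk2, a calcium and calmodulin dependent kinase, so every cell of a KO host carried the deletion while the tumour cells of both groups were the same line. Mice were told apart by antibody hashtags, and the mice of a genotype shared 1 channel, so genotype and channel cannot be told apart. The mice are the replicates of every test below.

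Microglia that meet dying cells, myelin debris or plaques switch on a lipid-handling, phagocytic programme, and macrophages in tumours and in fatty tissue use many of the same genes. Trem2, a surface receptor for lipids and lipoproteins, signals through Tyrobp, an adaptor with an activating motif that many other myeloid and NK cell receptors share. Downstream of the receptor stand secreted products such as Spp1 (osteopontin) and Igf1, the membrane proteins Cd9 and Gpnmb, the fatty acid carrier Fabp5, the protease inhibitor Cst7 (cystatin F), and the integrin chain Itgax, which is also the CD11c marker of dendritic cells.

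Promoter windows in RefSeq on GRCm38.p6, running from 250 bases before to 50 bases after the annotated start, were found for 7 of the 9 genes, in 8 windows. Each window was searched on both strands for AGGAAGT (a core bound by PU.1 and other ETS factors of myeloid cells), TCANGTG (MITF and TFE factors, which drive lysosomal genes) and TGANTCA (AP-1). TGANTCA was found in the windows of Trem2, Gpnmb, Cst7, Itgax and Igf1, against 7.81% of 32851 promoter windows in all. Its open centre base was C in Gpnmb and G in Itgax, the bases of the usual AP-1 site. It was A or T in Trem2, Igf1 and Cst7, so those matches are to a looser pattern. The AGGAAGT core was found in those of Spp1 and Cst7, against 9.35% of all windows, and TCANGTG was found for Cst7, against 14.3%. The stretch from 100 bases before to 20 bases after the start is shown for the 5 genes with TGANTCA. That match is the feature most of the genes had in common. Capitals mark the matched letters, and all 5 genes lie on the plus strand.
Trem2, chr17:48346301-48346420: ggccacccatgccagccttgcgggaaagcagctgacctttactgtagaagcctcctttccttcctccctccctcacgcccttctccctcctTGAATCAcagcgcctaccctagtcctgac
Gpnmb, chr6:49036418-49036537: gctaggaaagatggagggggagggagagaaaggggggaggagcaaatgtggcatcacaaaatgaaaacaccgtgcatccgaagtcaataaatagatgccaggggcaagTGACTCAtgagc
Cst7, chr2:150570315-150570434: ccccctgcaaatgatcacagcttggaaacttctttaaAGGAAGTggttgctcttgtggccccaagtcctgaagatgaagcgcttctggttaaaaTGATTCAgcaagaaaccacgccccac
Itgax, chr7:128129450-128129569: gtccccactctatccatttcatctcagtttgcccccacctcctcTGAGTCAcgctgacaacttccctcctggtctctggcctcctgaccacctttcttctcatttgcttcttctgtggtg
Igf1, chr10:87861011-87861130: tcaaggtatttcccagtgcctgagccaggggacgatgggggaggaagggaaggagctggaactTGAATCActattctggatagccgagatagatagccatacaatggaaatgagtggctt
A match of letters is a description of the window and not a bound site. The genes themselves are protein coding and lie apart in the genome (GENCODE M21 on GRCm38), for example Trem2 on chromosome 17 at 48346401 to 48354147, Tyrobp on chromosome 7 at 30413760 to 30417585 and Spp1 on chromosome 5 at 104435118 to 104441050.

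After hashtag doublets, outlying cells and computed doublets were removed, 5003 WT and 5601 CaMKK2 KO cells remained, with median depths of 12551 and 11442 UMIs and totals of 11785392 to 20170646 UMIs a mouse. The libraries shared 42 cell barcodes. Camkk2 itself was lower in the KO mice, at 13.3 to 22.7 CPM (UMIs of a gene scaled to the total UMIs), than in the WT mice, at 27.7 to 38.9 CPM, and was not at 0, and 3′ reads need not fall in the deleted part. Cells were assigned to classes by how many of a class's marker genes, none of them a gene of the 9, had a UMI. The main classes were TAM-like cells (tumour-associated macrophages, 3221 cells), microglia-like cells (526), classical monocyte-like cells (1320), DC2-like cells (410), mature DC-like cells (187), NK cell-like cells (1378) and T cell-like cells (1498). These gates cut a continuum between monocytes and macrophages. Near a limit, so that a stricter gate left them out, lay 31.2% of TAM-like and 54.2% of classical monocyte-like cells. The microglia gate rested on 10 markers such as Tmem119, P2ry12 and Sall1, and 476 TAM-like cells had 4 or 5 of them. Microglia with few of these markers would fall outside the gate. Values of microglia-like cells therefore cover only cells that kept them. Levels below are CPM of counts summed over a mouse's cells of the class, for mice with at least 10 such cells, and reads from the 3′ end do not scale with transcript length.

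The 9 genes did not share 1 order of classes. Among the 10 classes compared mouse by mouse, the mean over both genotypes of Trem2, Cd9 and Igf1 was highest in microglia-like cells, that of Spp1 and Gpnmb in TAM-like cells, that of Tyrobp in monocytes, and those of Fabp5, Itgax and Cst7 in dendritic or lymphoid classes. Microglia-like and TAM-like cells did not differ in Igf1 beyond the spread between mice, and the order of Spp1 differed by genotype. The plot of levels by class shows these patterns mouse by mouse.

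**Figure D1:**
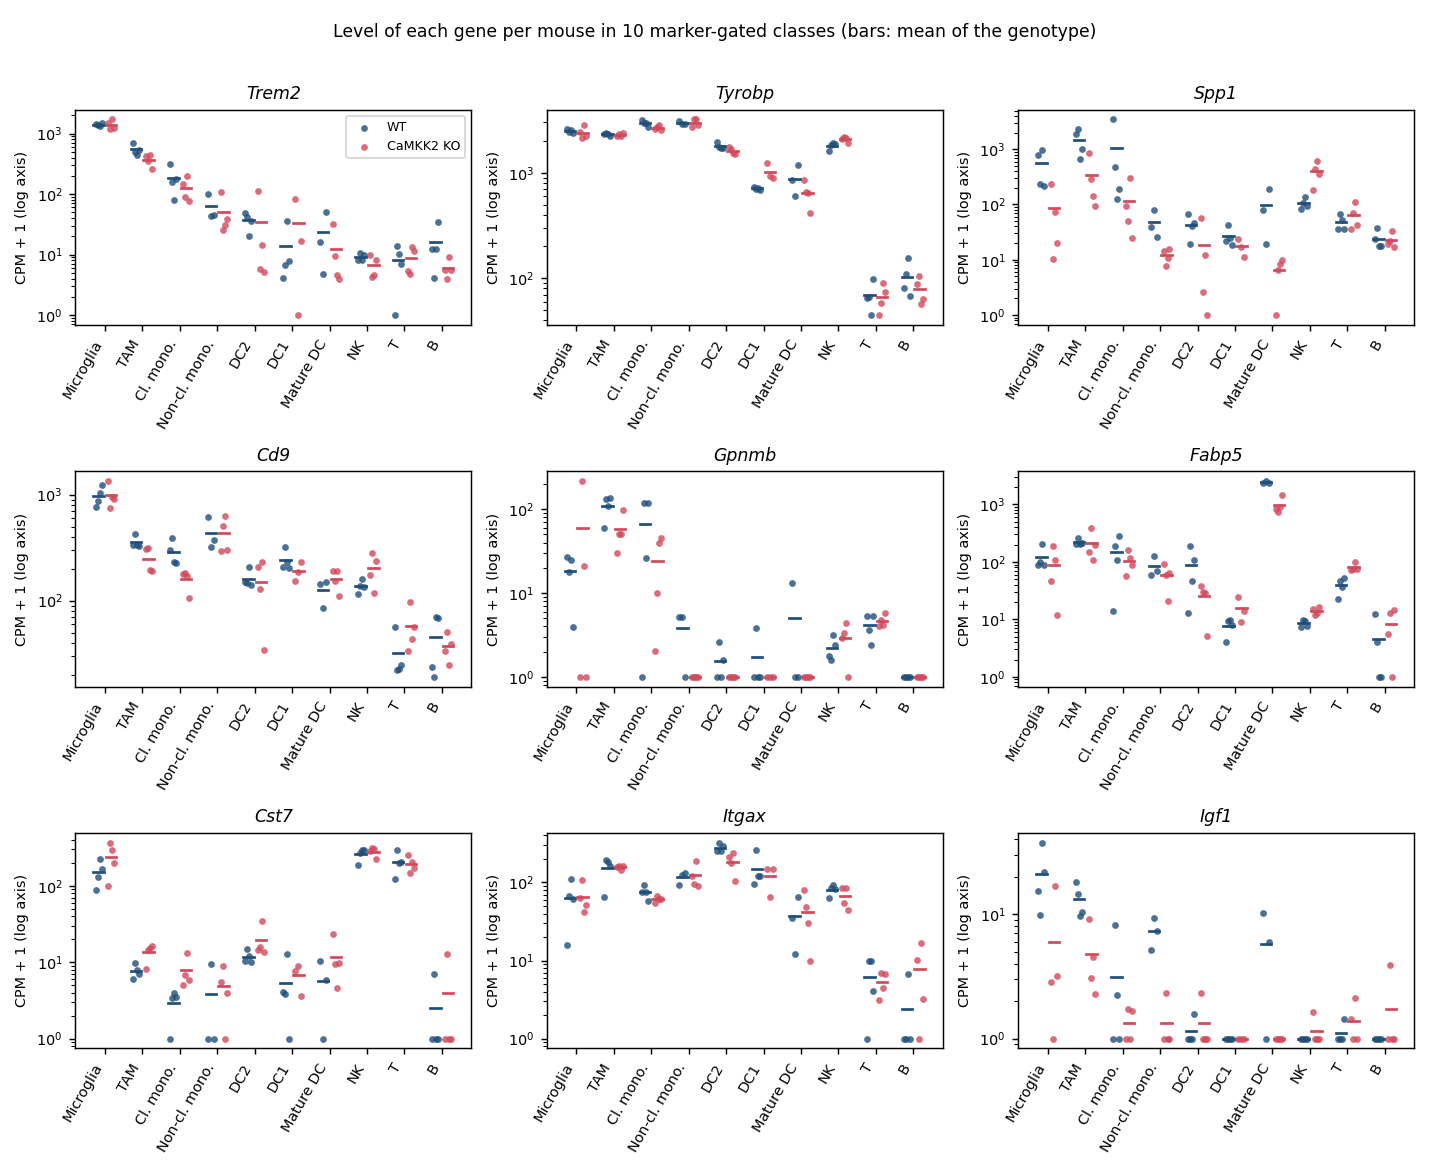
Level of each gene as CPM + 1 on a log axis (y) in 10 marker-gated classes (x), 1 point per mouse with at least 10 cells, WT in blue and CaMKK2 KO in red, bars at the genotype means. Trem2 is highest in microglia-like cells and lowest in lymphoid cells, Fabp5 stands highest in mature DC-like cells, and Cst7 is high in microglia-like, NK cell-like and T cell-like cells and low elsewhere.

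Trem2, the receptor, fell from a mean of 1411 CPM in microglia-like cells to 459 CPM in TAM-like, 154 CPM in classical monocyte-like, 55.9 CPM in non-classical monocyte-like and 34.4 CPM in DC2-like cells. Microglia-like cells were above TAM-like cells in 8 of 8 mice, and TAM-like cells were above classical monocyte-like cells in 8 of 8 mice (two-sided exact sign-flip permutation test, p = 0.00781 for each step, the smallest that 8 mice allow, and adjusted p = 0.0666). Below the DC2-like cells no step exceeded the spread between mice, and NK cell-like, T cell-like and B cell-like cells lay between 6.97 and 9.94 CPM. In WT mice that was 1.30% to 2.72% of the TAM-like level, inside the 0.317% to 5.26% that 10 macrophage marker genes showed in the same lymphoid cells. Whether it is background from free RNA was not tested.

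Tyrobp, the adaptor, was high in monocyte-like, microglia-like, TAM-like, NK cell-like and DC2-like cells alike. Its mean was 2978 CPM in non-classical monocyte-like, 2809 CPM in classical monocyte-like, 2449 CPM in microglia-like, 2295 CPM in TAM-like, 1946 CPM in NK cell-like and 1701 CPM in DC2-like cells. DC1-like and mature DC-like cells had less, 867 and 756 CPM. T cell-like and B cell-like cells had 66.7 and 89.8 CPM. Adaptor and receptor followed different orders, and WT NK cell-like cells held Tyrobp at 77.9% of the TAM-like level and Trem2 at 1.503%.

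Spp1, secreted osteopontin, averaged 909 CPM in TAM-like, 590 CPM in classical monocyte-like, 319 CPM in microglia-like and 251 CPM in NK cell-like cells over both genotypes. The order differed by genotype. WT means were 1478 CPM in TAM-like, 1064 CPM in classical monocyte-like, 553 CPM in microglia-like and 105 CPM in NK cell-like cells, while KO means were 398 CPM in NK cell-like, 341 CPM in TAM-like, 116 CPM in classical monocyte-like and 84.6 CPM in microglia-like cells. Among these only the step from NK cell-like to T cell-like cells (55.0 CPM) was higher in 8 of 8 mice (exact sign-flip permutation test, p = 0.00781, adjusted p = 0.0666). The place of classical monocyte-like cells in the WT order rests on WT mouse 1, at 3467 CPM from only 22 such cells. The other WT mice had 125 to 474 CPM there, all below the WT mean of microglia-like cells. TAM-like cells held 80.9% of all Spp1 UMIs in the WT library and 58.3% in the KO library, while NK cell-like cells held 1.26% and 23.1%. These shares pool the mice and move with the mix of cells. TAM-like cells were 35.6% of WT and 25.7% of KO cells, and NK cell-like cells 11.3% and 14.5%. Gpnmb, a lysosomal and surface glycoprotein, was highest in TAM-like cells at 82.6 CPM, above classical monocyte-like cells (44.3 CPM) in 8 of 8 mice with the same p. No Gpnmb UMI was seen in B cell-like cells, where 3 counts in a mouse would be 6.71 to 50.6 CPM.

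Cd9, a tetraspanin, averaged 983 CPM in microglia-like, 433 CPM in non-classical monocyte-like and 302 CPM in TAM-like cells, and stayed between 142 and 222 CPM in DC1-like, DC2-like, mature DC-like, classical monocyte-like and NK cell-like cells. Igf1, a growth factor, was the rarest gene, with 642 UMIs in 10604 cells, at 12.5 CPM in microglia-like and 7.98 CPM in TAM-like cells. Those 2 classes did not differ in Igf1 beyond the spread between mice (higher in microglia-like cells in 4 of 8 mice, exact p = 0.773). TAM-like cells exceeded non-classical monocyte-like cells in 7 of 7 mice.

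Fabp5, the fatty acid carrier, was 1697 CPM in mature DC-like cells, the CCR7-bearing dendritic cells that carry antigen, and 214 CPM in TAM-like cells next in order, higher in 7 of 7 mice (exact p = 0.0156). Mature DC-like cells were 1.54% of the WT cells and held 16.7% of their Fabp5 UMIs. Microglia-like cells had 103 CPM. Itgax was 229 CPM in DC2-like, 153 CPM in TAM-like, 134 CPM in DC1-like and 120 CPM in non-classical monocyte-like cells. No step between neighbours among these 4 classes had an exact p under 0.05. Classes that were not neighbours, such as DC2-like and non-classical monocyte-like cells, were not compared. Itgax in mature DC-like cells, which are dendritic cells too, was only 38.7 CPM, and in microglia-like cells it was 63.4 CPM. Cst7, an inhibitor of lysosomal cathepsins that cytotoxic lymphocytes also make, was 268 CPM in NK cell-like, 198 CPM in T cell-like and 195 CPM in microglia-like cells. It then dropped to 14.7 CPM in DC2-like and 9.59 CPM in TAM-like cells, and microglia-like cells were above DC2-like cells in 8 of 8 mice. In the WT library NK cell-like cells held 40.5% and T cell-like cells 35.1% of the Cst7 UMIs.

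Over the 81 neighbouring steps of the 9 orders, 26 had an unadjusted p under 0.05, 8 were at the smallest p that 8 mice allow, and none passed after adjustment (lowest adjusted p = 0.0666, exact sign-flip permutation tests). Rare classes were summed over mice and not tested. In 40 neutrophil-like cells (21 WT and 19 KO) Spp1 was 833 CPM in the WT and 92.5 CPM in the KO library, from 112 and 10 UMIs. Only 1 mouse of each genotype had at least 10 such cells, and Spp1 there was 321 CPM in WT and 218 CPM in KO (24 and 9 UMIs). In 22 basophil-like cells Cd9 was 1980 CPM in the WT and 3475 CPM in the KO library, above its mean in microglia-like cells. These cells all lay in cluster 5, whose leading genes include the mast cell proteases Mcpt1, Mcpt4, Cma1 and Tpsb2 beside Mcpt8. Basophils and mast cells are therefore not told apart by this gate. Neutrophil-like cells held Tyrobp at 3513 and 2997 CPM. Plasmacytoid dendritic cell-like cells (83 cells) held Tyrobp at 2726 and 3125 CPM, and Trem2 at 12.6 CPM and 0 UMIs.

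The genes with the most similar pattern over 20 class means of both genotypes were searched among 8645 genes with at least 1000 UMIs. Trem2 was closest to Ctsl, a lysosomal cathepsin (Pearson r = 0.9898), and Rnase4 (r = 0.980). Tyrobp was closest to Fcer1g, the other activating adaptor of myeloid and NK cells (r = 0.932). Igf1 was closest to Fcrls, a microglial gene (r = 0.914), Spp1 to Tmem37 (r = 0.880), Cd9 to Csnk1e (r = 0.941), Gpnmb to Bach2os (r = 0.934), Fabp5 to Chpt1 (r = 0.918), Cst7 to Rcn1 (r = 0.945) and Itgax to Fes (r = 0.873). Only Itgax had another gene of the 9, Tyrobp, among its closest 2 (r = 0.845). These points share libraries and are descriptions.

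Within TAM-like cells the 9 genes differed in how evenly cells carried them. The 10% of WT TAM-like cells with the most UMIs of a gene held 19.3% of the Tyrobp UMIs, 26.9% of Trem2, 37.5% of Cd9 and 40.7% of Itgax. That 10% held 75.5% for Fabp5, 81.3% for Spp1 and 98.0% for Gpnmb. Spp1 reached 1711 UMIs in a single WT cell and 2008 UMIs in a single KO cell, and Gpnmb reached 552 UMIs in a WT cell. Such a share depends on how many cells have a UMI at all, which was 58.6% of WT TAM-like cells for Spp1 and 46.0% for Fabp5 but 13.6% for Gpnmb, 7.91% for Cst7 and 7.63% for Igf1. The first 10% of cells held 100% of the Cst7 and Igf1 UMIs because fewer cells than that had one, and the share of Gpnmb is near its upper limit. Rank correlations between the genes across TAM-like cells of a mouse were low, the highest median over 8 mice being 0.343 for Spp1 with Cd9 (0.102 to 0.470) and 0.313 for Gpnmb with Fabp5 (0.104 to 0.443). In microglia-like cells Trem2 with Cd9 had the highest, 0.398 (0.207 to 0.629). Cells of a mouse share depth, so these values are descriptions.

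**Figure D2:**
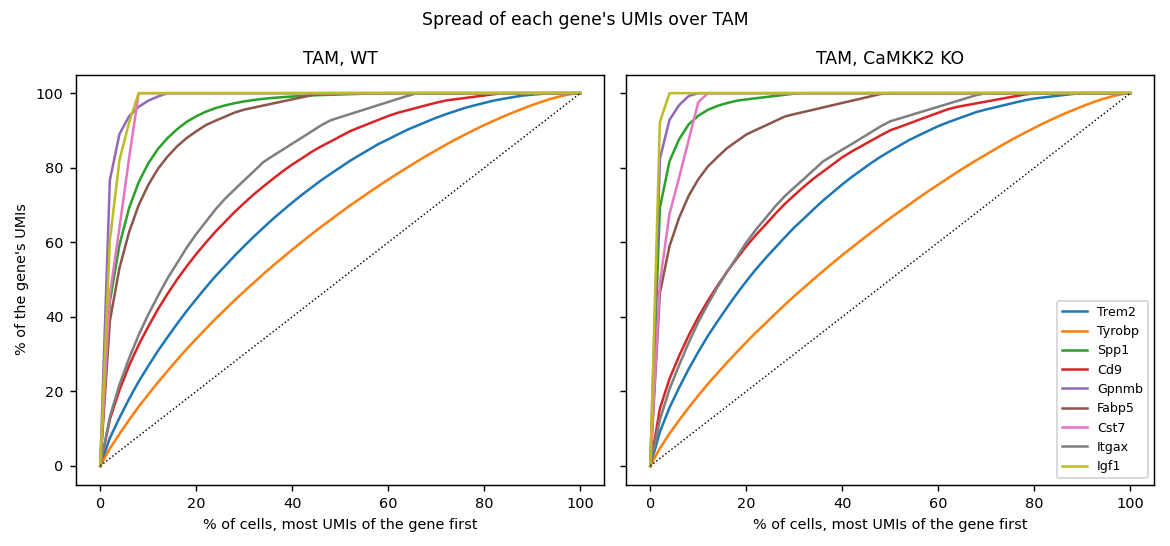
Cumulative share of each gene's UMIs (y, %) against the share of TAM-like cells (x, %), cells with most UMIs first, WT left and CaMKK2 KO right; the dotted line is an even spread. Tyrobp lies nearest the even line, and Gpnmb, Cst7 and Igf1, each with a UMI in at most 13.6% of WT cells, lie farthest from it.

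WT and CaMKK2 KO mice were compared class by class over every gene that reached 200 UMIs in a class. Of 58 tests of a gene in a class or in all cells, 3 passed an adjusted p of 0.05: Spp1 was higher in KO NK cell-like cells, Fabp5 was higher in KO T cell-like cells, and Fabp5 was lower in KO mature DC-like cells. Of all genes tested, 3.22%, 2.6% and 0.748% passed in NK cell-like, T cell-like and mature DC-like cells. None of the 9 genes passed in TAM-like, microglia-like or monocyte-like cells. There 2.24%, 1.5%, 2.15% (classical) and 1.02% (non-classical) of all genes did. In TAM-like cells 6 of 9 had an unadjusted p under 0.05, as did 2040 of all 9384 genes tested there.

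**Figure D3:**
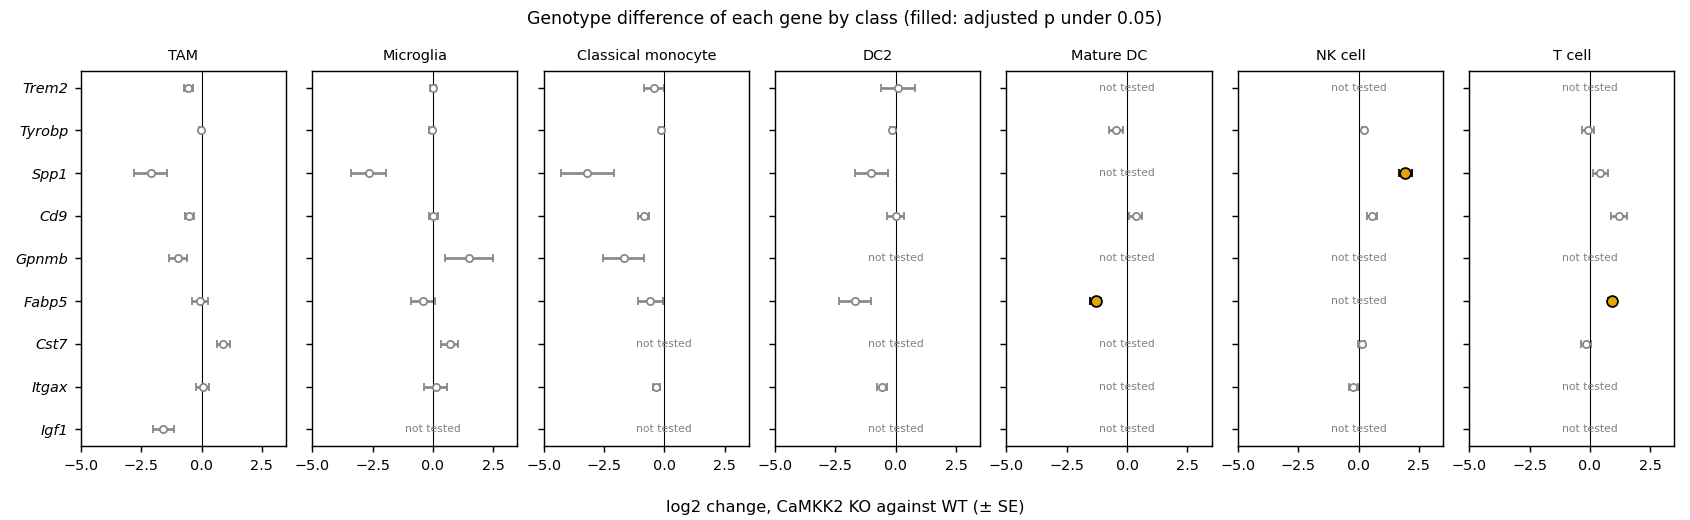
log2 change of each gene, CaMKK2 KO against WT (x, ± SE), for 7 classes; filled points passed an adjusted p of 0.05 and genes under 200 UMIs in a class were not tested. The 3 filled points are Spp1 in NK cell-like cells (1.94), Fabp5 in T cell-like cells (0.91) and Fabp5 in mature DC-like cells (-1.31).

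In NK cell-like cells Spp1 was 81.7, 106, 138 and 93.0 CPM in WT mice 1 to 4 and 183, 440, 611 and 357 CPM in KO mice 1 to 4. The genotypes did not overlap. The mean rose from 105 ± 24.3 CPM (SD, n = 4) to 398 ± 178 CPM (n = 4), a log2 change of 1.94 ± 0.28 (SE, edgeR quasi-likelihood test, adjusted p = 0.00179). Spp1 was the 1 gene called of 5 tested there, against 3.22% of all genes called in that class. An unadjusted p under 0.05 was reached by 3 of the 5, and by 1269 of all 6607 genes tested. The count of cells did not follow: after thinning every cell to 3000 UMIs, 14.7% ± 1.56 of WT and 17.2% ± 9.70 of KO cells had a Spp1 UMI (exact permutation p = 0.629, leaving out 10 WT and 21 KO cells that were shallower, against 32.8% and 28.3% of all cells unthinned), while 6.70% of WT and 5.36% of KO B cell-like cells had one at median depths of 3553 and 4991 UMIs. The 10% of KO NK cell-like cells with most held 88.6% of their Spp1 UMIs, against 75.4% in WT.

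Within the NK gate the cells were split by a UMI of Gzmc, a granzyme of activated NK cells, a split chosen after seeing the data. With Gzmc, Spp1 was 100, 129, 176 and 115 CPM in WT mice 1 to 4 and 273, 791, 752 and 472 CPM in KO mice 1 to 4, a log2 change of 2.16 (edgeR, adjusted p = 0.00027), and the genotypes did not overlap. Without Gzmc it was 38.8 ± 14.0 CPM in WT and 91.8 ± 120 CPM in KO (adjusted p = 0.398), where KO mouse 4 stood at 272 CPM and the other KO mice at 27.8 to 38.3 CPM. The share of NK cell-like cells with Gzmc was 48.9% to 59.3% in WT and 31.2% to 63.2% in KO mice. The summed level of 10 macrophage markers in NK cell-like cells was 171 to 209 CPM in WT and 109 to 267 CPM in KO mice, overlapping, while that of the 8 classical monocyte markers was 648 to 930 CPM in WT and 1216 to 1462 CPM in KO mice. The 7 T cell markers (89.7 to 122 and 136 to 163 CPM) and the 8 mature DC markers (110 to 121 and 129 to 156 CPM) did not overlap either, and the part of these in the result was not tested. With outlying cells kept, the NK result was lost (log2 change 1.12, adjusted p = 0.128): WT mice then had 82.1 to 530 CPM and KO mice 275 to 870 CPM. It was also lost when the B cell-like level was subtracted as free RNA (log2 change 2.25, adjusted p = 0.0981). That subtraction left 8 of 2485 genes called in this class, against 213 of 6607 in the main test.

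**Figure D4:**
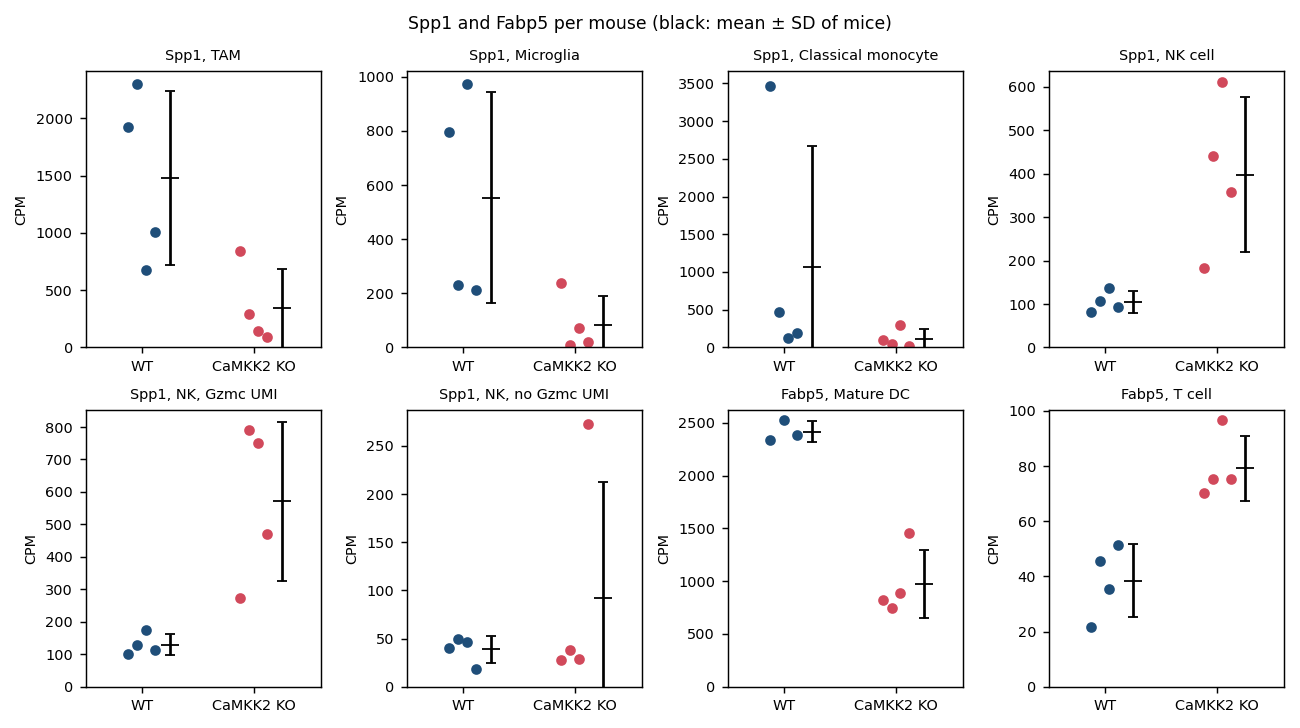
CPM per mouse (y, from 0) of Spp1 in TAM-like, microglia-like, classical monocyte-like and NK cell-like cells and in NK cell-like cells with and without a Gzmc UMI, and of Fabp5 in mature DC-like and T cell-like cells; black marks are the mean ± SD over mice, cut at 0. Spp1 averages 1478 and 341 CPM in WT and KO TAM-like cells, which did not pass the test, and is higher in KO NK cell-like cells, and Fabp5 is lower in KO mature DC-like and higher in KO T cell-like cells.

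In T cell-like cells Fabp5 was 21.5, 45.6, 35.4 and 51.4 CPM in WT mice 1 to 4 and 70.1, 75.3, 96.6 and 75.2 CPM in KO mice 1 to 4. No KO mouse was as low as any WT mouse. The log2 change was 0.91 ± 0.17 (SE, n = 4 and 4, edgeR, adjusted p = 0.0141), and 1 of 5 genes tested was called, against 2.6% of all genes. Of the 5, 2 had an unadjusted p under 0.05, as did 1266 of all 7044 genes tested. The share of cells with a Fabp5 UMI after thinning was 7.17% ± 4.83 in WT and 15.0% ± 2.24 in KO mice (exact permutation p = 0.0286, the smallest 4 against 4 allows, adjusted p = 0.257; 23.1% and 35.6% of all cells unthinned), and 1.81% and 2.06% in B cell-like cells. In CD8 cells, which had a UMI of Cd8a or Cd8b1 but none of Cd4, the log2 change was 0.85 (adjusted p = 0.0555), in cells with Cd4 and no Cd8 UMI 0.83 (adjusted p = 0.168), and in cells with a Foxp3 UMI, the regulatory T cell factor, 0.54 (adjusted p = 0.371). Fabp5 was highest in the Foxp3 cells, 106 ± 41.3 CPM in WT (n = 3) and 150 ± 43.9 CPM in KO (n = 4). Cells with Cd4 and no Cd8 UMI were 12.7% to 20.7% of the gate in WT and 26.3% to 56.2% in KO mice, and their part in the difference of the whole gate was not tested. Without WT mouse 3 the adjusted p was 0.078. With each cell weighted equally it was 0.257, and with the B cell-like level of the same mouse subtracted as free RNA it was 0.8289. In turn, 78 of 7044 and 10 of 2819 genes were called in these settings, against 183 of 7044 in the main test. Cd9 in T cell-like cells was 56.0, 21.2, 21.9 and 23.97 CPM in WT and 32.7, 96.7, 42.1 and 55.2 CPM in KO mice, overlapping, with a log2 change of 1.21 ± 0.33 that missed the threshold (adjusted p = 0.0704).

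In mature DC-like cells Fabp5 was 2341, 2528 and 2382 CPM in WT mice 2 to 4 and 820, 746, 888 and 1453 CPM in KO mice 1 to 4, and WT mouse 1 had under 10 such cells and was left out. Every WT mouse stood above every KO mouse. The log2 change was -1.31 ± 0.23 (SE, edgeR, adjusted p = 0.0351), 1 of 3 genes tested was called, and 0.748% of all genes in the class were. The 10% of cells with most Fabp5 held 40.4% of the UMIs in WT and 41.4% in KO. The share of cells with a UMI after thinning was 73.4% ± 4.84 in WT and 61.7% ± 7.73 in KO (exact permutation p = 0.114). With 3 mice against 4 this test cannot give a p under 0.05, so it cannot decide whether the shares differ. Unthinned, 83.1% and 70.9% of all cells had one. The 10 macrophage markers summed to 206 to 980 CPM in WT and 165 to 705 CPM in KO mature DC-like cells, and the 7 NK cell markers to 302 to 442 CPM and 193 to 291 CPM, without overlap. The 7 T cell markers (14.7 to 19.7 CPM in WT and 25.3 to 41.9 CPM in KO), the 2 CD8 T cell markers (0 to 11.04 and 13.2 to 36.1 CPM) and the 8 B cell markers (3.68 to 12.3 and 0 to 3.61 CPM) did not overlap either, and the part of these in the result was not tested. The call rested on few mice: it was lost without any 1 of WT mice 2, 3 or 4 or KO mice 2 or 3 (adjusted p up to 0.15). It was also lost with free RNA subtracted (log2 change -1.45, adjusted p = 0.123). In that setting 0 of 581 genes were called in this class, against 11 of 1471 in the main test. Fabp5 in DC2-like cells was 11.7, 188, 46.3 and 105.9 CPM in WT and 37.7, 29.2, 28.1 and 4.2 CPM in KO mice, overlapping, and its log2 change of -1.68 ± 0.67 did not pass (adjusted p = 0.285).

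In TAM-like cells Spp1 was 1926, 2302, 679 and 1005 CPM in WT mice 1 to 4 and 841, 289, 143 and 92.0 CPM in KO mice 1 to 4. Only KO mouse 1 reached the WT range. The log2 change was -2.11 ± 0.67 (SE, edgeR, adjusted p = 0.125). None of 9 genes was called, against 2.24% of all genes in this class. The genotypes filled the gate with different clusters of cells, computed without the 9 genes. Of WT TAM-like cells 42.8% lay in cluster 3 (973 WT and 20 KO cells in all) and 40.7% in cluster 0 (760 and 288 cells), while of KO TAM-like cells 50.4% lay in cluster 13 (35 and 1102 cells), 19.9% in cluster 14 (8 and 870 cells) and 19.0% in cluster 0. Spp1 was among the leading genes of cluster 3, and the values of TAM-like cells compare these mixtures. Without KO mouse 1, Spp1 (log2 change -3.08), Igf1 (-2.28) and Cst7 (1.11) passed, 3 of 9 genes against 1.76% of all genes. None of the 9 passed when any other single mouse was left out. The share of TAM-like cells with a Spp1 UMI after thinning was 37.5% ± 8.997 in WT and 15.4% ± 7.03 in KO mice, without overlap (exact permutation p = 0.0286, adjusted p = 0.257 over all genes and classes), and 58.6% and 30.8% of all cells had one unthinned. In TAM-like cells with under 5 of the 8 classical monocyte markers, a subset chosen after seeing the data, the log2 change of Spp1 was -2.64 (adjusted p = 0.0211).

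Igf1 in TAM-like cells was 17.2, 13.5, 8.75 and 9.33 CPM in WT and 8.13, 2.07, 3.55 and 1.29 CPM in KO mice, without overlap, a log2 change of -1.58 ± 0.45 (adjusted p = 0.0955). Cd9 was 337, 426, 334 and 328 CPM in WT and 304, 310, 192 and 187 CPM in KO mice, without overlap, a log2 change of -0.52 ± 0.19 (adjusted p = 0.161). Trem2 was 707, 498, 444 and 537 CPM in WT and 419, 353, 450 and 263 CPM in KO mice, where KO mouse 3 lay above WT mouse 3, a log2 change of -0.56 ± 0.19 (adjusted p = 0.142). Gpnmb was 59.1, 131, 110 and 135 CPM in WT and 29.0, 49.9, 50.05 and 96.8 CPM in KO mice, overlapping, a log2 change of -0.97 ± 0.36 (adjusted p = 0.167). DESeq2 called Igf1 and Cst7, and it called 601 of all 9384 genes, against 210 in the main test. Tyrobp, Fabp5 and Itgax had log2 changes of -0.02 ± 0.08, -0.05 ± 0.34 and 0.04 ± 0.28. The median log2 change of the 9 genes was -0.52, beside -0.08 over all genes tested.

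Cst7 in TAM-like cells had the opposite sign, at 5.09, 8.64, 6.91 and 6.03 CPM in WT and 7.18, 13.3, 14.4 and 15.2 CPM in KO mice, a log2 change of 0.90 ± 0.26 (adjusted p = 0.100). KO mouse 1 alone lay within the WT range. Markers of other classes differed by genotype in the same cells. The summed level of 7 NK cell markers, none at 0, was 11.96 to 31.8 CPM in WT and 37.2 to 94.5 CPM in KO TAM-like cells, and that of 10 microglia markers was 314 to 439 CPM in WT and 145 to 274 CPM in KO. The summed level of the 8 classical monocyte markers was 1863 to 3834 CPM in WT and 2649 to 6847 CPM in KO, overlapping. Marker sums of T cells, regulatory T cells, mature DC, non-classical monocytes and other tissues were also higher in KO TAM-like cells without overlap, and that of basophils was lower. The part of these shifts in the values of the 9 genes was not tested.

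In microglia-like cells Spp1 was 795, 230, 973 and 212 CPM in WT and 237, 9.35, 72.8 and 19.5 CPM in KO mice, overlapping through KO mouse 1, a log2 change of -2.67 ± 0.72 (adjusted p = 0.105). None of 8 genes was called, against 1.5% of all genes. An unadjusted p under 0.05 was reached by 1 of the 8, and by 870 of all 5149 genes tested. Without KO mouse 1 Spp1 alone passed (-3.80), against 0.934% of all genes. None of the genes passed when any other single mouse was left out. The median log2 change of all genes in this class was -0.13 and moved to -0.01 under TMM scaling. Trem2, Tyrobp and Cd9 differed there by less than the SE, with log2 changes of 0.00 ± 0.13, -0.05 ± 0.11 and 0.01 ± 0.19. Trem2 in microglia-like cells was 1411 ± 70.1 CPM in WT and 1411 ± 236 CPM in KO mice. Igf1 had under 200 UMIs in this class and was not tested, at 20.1 ± 11.8 CPM in WT and 5.00 ± 7.37 CPM in KO mice. Cst7 was 151 ± 57.0 and 238 ± 115 CPM (adjusted p = 0.349).

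In classical monocyte-like cells Spp1 was 3467, 474, 125 and 188 CPM in WT and 93.1, 50.1, 299 and 23.2 CPM in KO mice, overlapping. WT mouse 1, with only 22 such cells, set the mean, and without it the log2 change moved from -3.20 ± 1.10 to -1.25. The share of cells with a Spp1 UMI after thinning was 20.2% ± 5.70 in WT (13.7% to 27.3%) and 6.41% ± 2.77 in KO mice (3.16% to 9.90%), without overlap (exact permutation p = 0.0286, adjusted p = 0.257). Here too the clusters differed, with 66.7% of WT cells in cluster 2 (453 WT and 4 KO cells in all), and 39.9% of KO cells in cluster 14 and 31.3% in cluster 23 (10 and 363 cells). With classes taken from clusters, Trem2 passed in the opposite direction (log2 change 0.92, 3 WT and 4 KO mice, edgeR adjusted p = 0.0284), against -0.44 with the gates (adjusted p = 0.676). Cluster 14, which counted as classical monocyte in that setting, also held 19.9% of the KO TAM-like cells. Its part in the Trem2 result was not tested. Of all genes, 908 of 6738 were called with clusters, against 130 of 6048 with the gates. Cd9 was 299, 390, 230 and 226 CPM in WT and 179, 181, 169 and 105 CPM in KO mice, without overlap, a log2 change of -0.85 ± 0.23 (adjusted p = 0.0954). None of 7 genes was called, against 2.15% of all genes. Of the 7, 2 had an unadjusted p under 0.05, as did 934 of all 6048 genes tested. None was called of 3 in non-classical monocyte-like cells (1.02% of all genes), of 3 in DC1-like cells (0.806%) or of 6 in DC2-like cells (1.1%). In these classes, in turn, 0, 1 and 2 of them had an unadjusted p under 0.05. Of all genes tested, 189 of 1674, 188 of 1737 and 651 of 4457 did. In DC1-like cells, where KO mouse 4 had too few cells, Tyrobp was 686 to 738 CPM in WT and 899 to 1236 CPM in KO mice, a log2 change of 0.53 ± 0.16 (adjusted p = 0.302). In DC2-like cells Itgax was 249, 318, 250 and 289 CPM in WT and 209, 178, 237 and 105 CPM in KO mice, without overlap, a log2 change of -0.57 ± 0.21 (adjusted p = 0.253).

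Summed over all leukocytes of a mouse, none of the 9 genes was called, against 1.55% of all genes. Of the 9, 5 had an unadjusted p under 0.05, as did 1921 of all 11258 genes tested. Spp1 was 1415, 951, 372 and 584 CPM in WT and 427, 173, 215 and 64.1 CPM in KO mice, a log2 change of -1.92 ± 0.58 (adjusted p = 0.161). Trem2 was 656, 353, 242 and 329 CPM in WT and 271, 168, 284 and 159 CPM in KO mice. In such sums fewer cells of a type and less RNA per cell cannot be told apart. Pooled over mice, microglia-like cells were 7.20% of the WT and 2.96% of the KO cells, but the mice overlapped. The share was 15.6%, 8.81%, 3.05% and 3.54% in WT mice 1 to 4. KO mice 1 and 2 lay below every WT mouse. KO mouse 4, at 3.57%, and KO mouse 3 lay above WT mice 3 and 4.

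The genotype effect on Spp1 differed between NK cell-like and TAM-like cells beyond the spread between mice. With mouse as a block, the genotype effect in NK cell-like cells exceeded that in TAM-like cells by 4.39 ± 0.79 on the log2 scale (edgeR interaction, adjusted p = 0.0164), and that of Cd9 by 1.03 ± 0.22 (adjusted p = 0.0382), 2 of 9 genes against 1.06% of all genes. Against T cell-like cells, Cd9 alone passed, with a difference of 1.65 ± 0.33 (adjusted p = 0.0324), against 0.944% of all genes. Both contrasts were chosen after seeing the data. Under TMM scaling the Spp1 difference from NK cell-like cells was 4.24 (adjusted p = 0.0241) and both Cd9 differences were lost. The interaction test was not run with outlying cells kept or free RNA subtracted, settings in which Spp1 in NK cell-like cells lost its call. None of the 9 genes differed in its genotype effect between TAM-like cells and microglia-like cells (0.102% of all genes), classical monocyte-like cells (0.093%) or DC2-like cells (0.301%). The lowest adjusted p of these was that of Trem2, with an effect 0.55 higher in microglia-like than in TAM-like cells (edgeR interaction, adjusted p = 0.278).

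Of 18 other genes of the microglial programme, 17 were tested in TAM-like cells and 4 fell in KO mice, where 2.24% of all genes were called: Apoe, a lipid carrier, from 31684 ± 5242 to 2074 ± 1286 CPM, Cd63, a tetraspanin of lysosomes, from 696 ± 186 to 228 ± 96.5 CPM, and the cathepsins Ctsb and Ctsd by 0.48 and 0.56 on the log2 scale. None rose, and the median log2 change of the 17 was -0.46, beside -0.08 over all genes. Cd63 lost the call without any 1 of WT mice 1 to 4 or KO mice 1, 2 or 4 (adjusted p up to 0.0941). Ctsb and Ctsd lost it without any 1 of WT mice 2 to 4 or KO mice 1 or 4 (adjusted p up to 0.0854). In microglia-like cells 1 of 17 fell (Apoe), against 1.5% of all genes called. In classical monocyte-like cells 2 of 17 fell (Apoe and Cd63), against 2.15% of all genes. Apoe there was lost without KO mouse 1 (adjusted p = 0.0518), and Cd63 without any of WT mouse 2 or KO mice 1, 2 or 4 (adjusted p up to 0.0975). Of 16 genes of the signalling chain around Trem2 and Tyrobp, 15 were tested in TAM-like cells, with a median log2 change of 0.08, and 1 passed, against 2.24% of all genes: Sirpb1c, a receptor that pairs with the adaptor, rose from 164 ± 8.39 to 252 ± 21.7 CPM (adjusted p = 0.00734). None of 14 in microglia-like and none of 15 in classical monocyte-like cells passed. The kinase Syk and the phospholipase Plcg2, which carry the signal onward, had log2 changes of -0.01 ± 0.11 and 0.06 ± 0.10 in TAM-like cells.

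Of 35 binding partners and relatives of the 9 proteins, 30 were tested in TAM-like cells, where 2 fell and 1 rose, against 2.24% of all genes called. Itgav, the alpha chain of osteopontin-binding integrins, fell from 80.5 ± 7.35 to 43.9 ± 4.09 CPM (log2 change -0.87 ± 0.10, adjusted p = 0.00208), and its partner chain Itgb5 fell from 249 ± 29.2 to 165 ± 24.8 CPM (adjusted p = 0.0481). Itgb5 lost the call without any 1 of WT mice 1 to 4 or KO mice 1, 2 or 4 (adjusted p up to 0.132). Igsf8, a membrane protein that binds Cd9, rose from 81.3 ± 5.96 to 125 ± 7.32 CPM in TAM-like cells (adjusted p = 0.00501). It also rose in microglia-like cells, from 53.1 ± 10.5 to 166 ± 25.6 CPM (log2 change 1.67 ± 0.18, adjusted p = 0.000291), 1 of 23 tested there against 1.5% of all genes, and none of 24 passed in classical monocyte-like cells. Igsf8 had the same sign there, at 38.1 ± 18.5 CPM in WT and 90.6 ± 17.1 CPM in KO mice. Its log2 change of 1.13 ± 0.26 just missed the threshold (edgeR, adjusted p = 0.0503). The medians of the 30, 23 and 24 genes were -0.10, -0.07 and -0.02 beside -0.08, -0.13 and -0.01 over all genes.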

How the data were processed

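Libraries of sorted CD45+ cells were made with 3′ droplet chemistry, and the deposited matrices hold raw UMI counts per gene and cell that the authors made with bcl2fastq 2.20, Cell Ranger 4.0.0 and STAR 2.7.5c on mm10, per the labels and the study's methods. Hashtag counts, deposited in the same matrices, gave each cell's mouse (Seurat 5.3.0, quantile 0.99). Cells over 3 median absolute deviations from the median in library size, genes or mitochondrial share, and computed doublets (scanpy 1.11.5), were removed. Cells were gated by marker genes, and counts were summed per mouse and class for mice with at least 10 cells. Genotypes were compared with edgeR 4.0.16 (quasi-likelihood test, total counts as library size) over every gene that reached 200 UMIs in a class, with Benjamini-Hochberg adjustment and a threshold of 0.05, and the step was tested on simulated data. Exact permutation tests compared shares and neighbouring classes over mice, on log2(CPM + 1) for the classes. Likeness used log2(CPM + 10). The study's differential expression tests compared cells, while its tests of cell type abundance compared mice. Mice were the replicates here. The 9 genes, the other gene lists and the gates were chosen with earlier results of these data known, and the cell subsets and the contrasts with NK cell-like and T cell-like cells were chosen after seeing the data. Other genes were named where they passed the test in a list. Alternatives were TMM scaling, DESeq2 1.42.0, other count filters, stricter gates, clusters, equal cell weights, free RNA subtraction, outlying cells or doublets kept, and leaving out each mouse.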

Additional observations from a re-analysis of the deposited data

Results flagged for a closer look

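In 6 of 77 groups of 4 mice, 1 mouse stood apart from the others by Dixon's criterion, which chance meets in about 1 of 20 groups. Spp1 in WT classical monocyte-like cells was 3467 CPM in mouse 1, with 22 cells, and 125 to 474 CPM in the other mice. Cd9 in WT TAM-like cells was 426 CPM in mouse 2 against 328 to 337 CPM. Cd9 in KO classical monocyte-like cells was 105 CPM in mouse 4 against 169 to 181 CPM. Cd9 in WT DC2-like cells was 206 CPM in mouse 3 against 138 to 149 CPM. Fabp5 in WT microglia-like cells was 203 CPM in mouse 3 against 88.1 to 98.1 CPM. Itgax in WT DC1-like cells was 259 CPM in mouse 2 against 93.8 to 119 CPM.

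The genotype effect differed between classes for 3 pairs by the edgeR interaction test. For Spp1, NK cell-like minus TAM-like cells was 4.39 on the log2 scale (adjusted p = 0.0164). For Cd9 it was 1.03 (adjusted p = 0.0382), and T cell-like minus TAM-like cells was 1.65 (adjusted p = 0.0324).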

How the results depend on the processing

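Of 58 tests of a gene in a class or in all cells, 24 changed sign under at least 1 alternative. None of the 23 with an unadjusted p under 0.05 did, and 1 of the 24 then passed, Trem2 in classical monocyte-like cells with clusters (log2 change 0.92). The number of the 9 genes called in TAM-like cells (0) became 1 with clusters, the stricter gate or under 5 monocyte markers, and 2 with DESeq2, and was 0 to 3 with each mouse left out. In microglia-like cells (0) it was 1 with cells weighted equally or no count filter and 0 to 1 with each mouse left out. In classical monocyte-like cells (0) it was 1 with clusters (Trem2, higher in KO), 1 with DESeq2 (Cd9, lower) and 2 with no count filter (Spp1 and Cd9, lower). The median log2 change of the genes tested there moved from -0.58 to 0.23 with clusters, and in DC1-like cells from -0.26 to 0.09 with no count filter, 0.14 without WT mouse 2 and 0.02 without KO mouse 2. That of microglia-like cells (0.01) took either sign. It became 1 with no count filter in non-classical monocyte-like cells (0), 1 with no count filter or the stricter gate in DC2-like cells (0), and 2 with DESeq2 over all cells (0). In mature DC-like cells (1) it was 2 with at least 50 UMIs or no count filter, 0 with free RNA subtracted, and 0 to 1 with each mouse left out. In NK cell-like cells (1) it was 0 with free RNA subtracted, outlying cells kept or cells without Gzmc, 2 with no count filter, and 1 to 2 with each mouse left out. In T cell-like cells (1) it was 0 with cells weighted equally, free RNA subtracted, or Foxp3, Cd4 or Cd8 cells alone, 2 with no count filter or the stricter gate, and 0 to 2 with each mouse left out. Under TMM scaling the interaction calls became 1 for NK cell-like cells (from 2) and 0 for T cell-like cells (from 1). The number of all genes called moved as well. In TAM-like cells it was 210 of 9384 in the main test and 601 of 9384 with DESeq2. It was 256 of 9279 with clusters, 197 of 8852 with the stricter gate and 155 of 8773 under 5 monocyte markers. In microglia-like cells it was 77 of 5149 in the main test, 65 of 5149 with equal weights and 371 of 15223 without a filter. In classical monocyte-like cells it was 130 of 6048, then 908 of 6738 with clusters and 244 of 6048 with DESeq2. With no count filter it was 325 of 15129 there. In NK cell-like cells it was 213 of 6607, then 458 of 7303 with outlying cells kept and 657 of 15371 without a filter. It was 95 of 3304 in those without Gzmc. For T cell-like cells it was 183 of 7044, then 657 of 16087 without a filter and 171 of 6885 with the stricter gate. Foxp3, Cd4 and Cd8 cells alone had 31 of 2012, 59 of 3007 and 96 of 5297. Mature DC-like cells had 11 of 1471, then 23 of 4570 with at least 50 UMIs and 167 of 12674 without a filter. DC2-like cells had 49 of 4457, then 297 of 14278 without a filter and 32 of 3199 with the stricter gate. Non-classical monocyte-like cells had 17 of 1674, then 140 of 12279 without a filter. Over all cells it was 175 of 11258, then 653 of 11258 with DESeq2. The cause of these changes was not tested.

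Spp1 in NK cell-like cells stayed called without any single mouse (log2 change 1.64 to 2.18), while Fabp5 in T cell-like cells (0.78 to 1.05) was lost without WT mouse 3. Few cells per mouse limit the dendritic classes, and genotype and channel cannot be told apart. No pairing of WT with KO mice was possible because the hashtag numbers name different mice in each genotype.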
